A study of Mus musculus with 5 samples.

Results

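Single-nucleus RNA counts were compared between labelled nephron nuclei taken 96 h after ischaemia-reperfusion injury (IRI) and labelled nephron nuclei from kidney without injury. The members were all barcodes of these libraries with at least 200 detected genes, 3202 at 96 h and 3508 without injury, together 6710 of the 16359 nuclei kept in the 5 libraries of the series. Both groups were male mice of 10 to 12 weeks that carried 3 transgenes, Six2-TGC, Rosa26rtTA and pTRE-H2BeGFP, and both received doxycycline in the food at 625 mg/kg. Under this system Six2-driven Cre activity in nephron progenitors lets their descendants make a green fluorescent histone (GFP) when doxycycline is present, so the sorted population is the nephron lineage and not the whole kidney. For the 96 h group both renal pedicles were clamped and released, and the labels give serum creatinine at harvest as 0.312 mg/dL, against 0.122 mg/dL for the group without injury, and urea nitrogen as 91.8 against 26.1 mg/dL. The sample label reads no injury while the series text speaks of sham operations, so it is unclear whether the reference animals were operated on. Nuclei were sorted on DNA stain, then on GFP, and 4000 per lane were loaded on the 10x Genomics v2 3' platform. Each group was 1 library, and nothing in the labels says how many animals it came from. There was therefore no replicate error and no test, and every interval below is a 95% interval for counting error alone.

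The proximal tubule (PT) reabsorbs most of the filtered solutes with carriers on a brush border and spends much oxygen, which makes its cells sensitive to a loss of blood flow. The thick ascending limb (TAL) carries sodium chloride through the cotransporter encoded by Slc12a1 and secretes uromodulin and epidermal growth factor. After ischaemia, surviving tubule cells are known to make injury proteins such as kidney injury molecule 1 (Havcr1) and lipocalin 2 (Lcn2), to lose brush border proteins, and to enter the cell cycle before the epithelium recovers. Beyond these classical markers, tubule cells can switch on genes usually associated with the liver's acute phase response, among them the fibrinogen chains.

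The libraries differed in depth by a factor that sets the precision of every value. Without injury there were 7153971 unique molecular identifiers (UMIs, counts of captured transcripts) with 1793.5 UMIs and 992.5 genes in the median nucleus. At 96 h there were 1856284 UMIs and medians of 507 UMIs and 374 genes. Levels are summed counts of a library scaled to a common total of UMIs (CPM), and 10 CPM corresponded to 71.5 UMIs without injury and 18.6 UMIs at 96 h. A count of 0 UMIs allows 0.419 CPM without injury and 1.62 CPM at 96 h. Sums over a library do not tell a change in RNA per nucleus from a change in the make-up of the sorted nuclei. The summed level of 15 PT markers was 27564 CPM without injury and 15295 CPM at 96 h, a ratio of 0.555 (0.548 to 0.562). For 11 TAL markers it was 2439 and 873 CPM, for 7 connecting tubule markers 1464 and 586 CPM, for 7 podocyte markers 1101 and 318 CPM, and for 7 distal convoluted tubule (DCT) markers 1168 and 1056 CPM. Markers of cells outside the label were low in both libraries. Macrophage and dendritic cell markers summed to 70.3 and 119.6 CPM with C1qa and C1qc at 0 at 96 h, endothelial markers to 113 and 197 CPM with Cdh5 at 0, and fibroblast and mural markers to 15.9 and 25.9 CPM. T and NK cell markers came to 12.0 and 29.6 CPM with Cd3e, Cd3g and Nkg7 at 0 in both libraries, and neutrophil markers to 1.68 and 6.46 CPM, from 12 UMIs in each library, a ratio of 3.85 (1.58 to 9.38), with S100a9 and Ly6g at 0 in both. Their part in the results below was not tested.

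Genes higher at 96 h outnumbered those that were lower. Of 9568 genes with a mean of at least 10 CPM over the 2 libraries, 1795 (18.8%) were at least 2-fold higher and 470 (4.91%) at least 2-fold lower on the log2(CPM + 1) scale, and the median log2 fold was 0.25. A gene near 0 in 1 library is measured only if it is high in the other. Counts and medians of the lists below are thus partly set by this filter. With trimmed mean of M-values (TMM) scaling, which assumes that most genes do not differ, log2 ratios of CPM moved by −0.37. On the log2(CPM + 1) scale genes near 0 CPM moved by less. The counts became 917 higher and 1067 lower. The share of higher calls among all calls thus went from 79.2% to 46.2%, so the excess of higher genes holds only for levels relative to total UMIs. Other annotated transcripts overlap more than 10% of the length of 2200002D01Rik, Agtr1a, Akr1b3, Akr1c14, Brca2, Cdkn1a, Cfb, Col4a3, Cp, Ctsd, Ctsl, Cubn, Dnase1, Edn1, Egf, Fgg, Gm13247, Gm14582, Gm16004, Gm26561, Hsd3b2, Irf1, Jund, Keg1, Mt2, Slc12a1, Slc13a3, Slc20a1 and Spp1, among the genes named below, and counts of such pairs are uncertain.

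**Figure D1:**
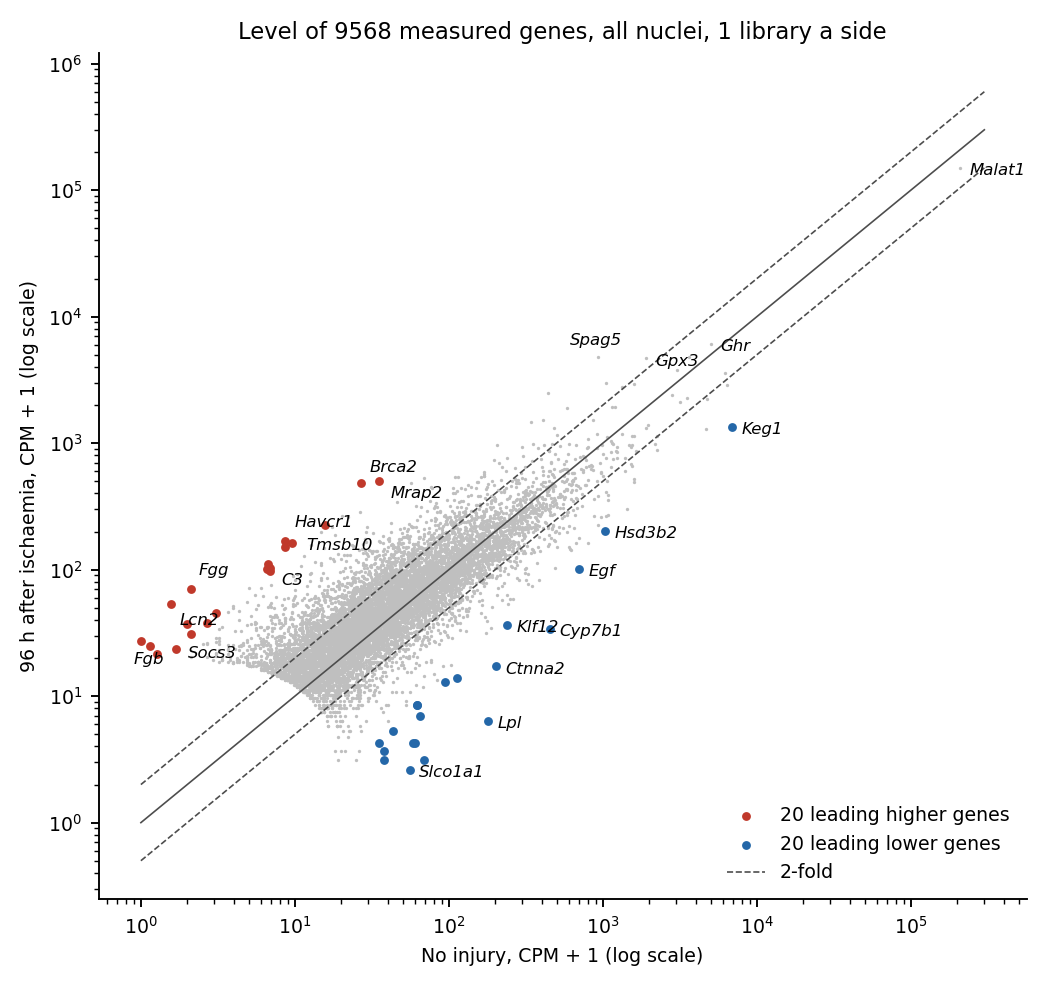
Level of each of 9568 measured genes without injury (horizontal) and 96 h after IRI (vertical), both as CPM + 1 on log axes, summed over all nuclei of 1 library each. Dashed lines mark a 2-fold difference, and the 20 leading genes on each side are coloured. Lcn2 lies at 0.559 and 52.8 CPM, Fgg at 1.12 and 69.5 CPM and Lpl at 179 and 5.39 CPM.

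Fgb and Fgg, which encode chains of fibrinogen, were among the 20 leading higher genes. Fibrinogen is the clotting protein that liver cells secrete as a hexamer of paired alpha, beta and gamma chains, encoded by Fga, Fgb and Fgg, which lie next to each other on mouse chromosome 3 (mm10): Fgg at chr3:83007724-83015049, plus strand, Fga at chr3:83026076-83033627, plus strand, and Fgb at chr3:83040141-83049863, minus strand. For Fgg there were 8 UMIs (1.12 CPM) without injury and 129 UMIs (69.5 CPM) at 96 h, a 62.1-fold (30.6 to 147) difference. Fgb had no UMI in 7153971 without injury and 49 UMIs (26.4 CPM) at 96 h, at least 49.3-fold higher by the exact interval and 62.9-fold when 3 counts are taken for the 0. The alpha chain was present before injury, with 147 UMIs (20.5 CPM) without injury and 115 UMIs (62 CPM) at 96 h, 3.01-fold (2.34 to 3.87) higher. All 3 chains were thus higher, the gamma and beta chains from near 0 and the alpha chain from a measurable level. Part of the Fgg gene overlaps another annotated transcript on 10.4% of its length, and the use of strand in counting was not stated in the sources used here.

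The bases just upstream of these genes are shown because all 3 chains were higher and because 2 motifs named in acute phase promoters can be looked up there, TTCNNNGAA (the core of STAT binding sites) and TTGCNNAA (the core of C/EBP sites), both searched on both strands. Sequences are from RefSeq on GRCm38.p6, written 5′ to 3′ on the strand of the gene, end at the base before the gene, and carry the motifs in capitals. The window of Fga stops where the longer gene model of GENCODE begins. The windows are chr3:83025903-83026075 on the plus strand, chr3:83049864-83050113 on the minus strand, chr3:83007474-83007723 on the plus strand and, for complement C3, chr17:57228137-57228386 on the minus strand.
Fga: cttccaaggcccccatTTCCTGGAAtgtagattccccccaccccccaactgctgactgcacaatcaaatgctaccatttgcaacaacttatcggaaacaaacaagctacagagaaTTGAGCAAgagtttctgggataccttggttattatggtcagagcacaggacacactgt
Fgb: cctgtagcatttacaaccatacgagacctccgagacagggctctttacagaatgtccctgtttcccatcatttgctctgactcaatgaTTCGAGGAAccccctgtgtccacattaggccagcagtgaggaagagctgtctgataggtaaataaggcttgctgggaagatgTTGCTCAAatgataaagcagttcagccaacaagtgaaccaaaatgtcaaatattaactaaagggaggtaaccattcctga
Fgg: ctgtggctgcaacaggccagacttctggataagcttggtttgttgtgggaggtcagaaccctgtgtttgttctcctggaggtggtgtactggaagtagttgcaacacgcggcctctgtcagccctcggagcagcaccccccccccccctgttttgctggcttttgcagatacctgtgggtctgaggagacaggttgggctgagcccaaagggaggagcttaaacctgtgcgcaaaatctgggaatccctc
C3: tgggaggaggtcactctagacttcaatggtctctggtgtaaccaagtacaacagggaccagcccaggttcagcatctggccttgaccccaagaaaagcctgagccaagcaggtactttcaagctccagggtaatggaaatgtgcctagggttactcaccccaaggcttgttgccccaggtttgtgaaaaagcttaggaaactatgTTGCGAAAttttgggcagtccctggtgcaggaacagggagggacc
Fga and Fgb each held 1 match to TTCNNNGAA and 1 to TTGCNNAA, with first bases 234 and 135 bases before the RefSeq start for Fga and 162 and 80 before that of Fgb. The gamma chain window held neither, and that of C3 held TTGCNNAA alone, 45 bases before the start. The matches did not overlap each other. Of 32851 promoters of 250 bases, 7.02% held TTCNNNGAA and 9.56% TTGCNNAA. A match describes the letters in the window, and no binding was measured here.

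The acute phase list, which includes the fibrinogen chains, was mostly higher. Of 33 listed genes 11 were measured, 10 were higher by 2-fold or more and 0 lower, with a median log2 fold of 3.34. Fgb, Fgg and Lcn2 were measured only through their level at 96 h, so this tally is partly set by the filter. Lcn2, which binds bacterial iron carriers and is a urinary injury marker (chr2:32384633-32388252, minus strand), had 4 UMIs (0.559 CPM) without injury and 98 UMIs (52.8 CPM) at 96 h, 94.4-fold (35.7 to 353). Ceruloplasmin (Cp), a copper-carrying ferroxidase, was 48.2 and 175 CPM and 3.62-fold (3.1 to 4.22) higher. Among genes that carry or damp cytokine signals, Socs3, a feedback inhibitor of STAT3 signalling, was 32.4-fold (12.8 to 105) higher from 5 and 42 UMIs. Osmr, the receptor chain for oncostatin M, was 16.1-fold (8.22 to 34.5) higher from 11 and 46 UMIs. Cebpb, a transcription factor of the acute phase response, was 13.8-fold (9.29 to 21.2) higher, and Stat3 itself 2.5-fold (2.29 to 2.74). The Stat3 difference was under 2-fold with TMM scaling.

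Complement genes were also higher. Only 5 of 24 listed genes were measured, and 4 of these were at least 2-fold higher, with a median log2 fold of 2.44. C3, the central component on which all activation routes meet (chr17:57203970-57228136, minus strand), had 42 UMIs (5.87 CPM) without injury and 188 UMIs (101 CPM) at 96 h and was 17.3-fold (12.3 to 24.7) higher. C4b of the classical route was 5.65-fold (4.56 to 7.02) higher and Cfb, factor B of the alternative route, 3.72-fold (2.94 to 4.72). Cfb overlaps another annotated gene almost throughout, so its counts may be shared. Macrophages are another source of complement RNA in kidney. The 10 macrophage and dendritic cell markers, 8 of them with UMIs at 96 h, together had 1.70 times (1.45 to 2.00) the CPM without injury, and their part was not tested.

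Tubule injury markers were mostly higher. Of 38 listed genes 28 were measured, 22 were higher by 2-fold or more and 0 lower, with a median log2 fold of 2.02. Havcr1, a receptor for dying cells on injured tubule (chr11:46735080-46779578, plus strand), had 55 UMIs (7.69 CPM) without injury and 310 UMIs (167 CPM) at 96 h, 21.7-fold (16.3 to 29.5). Clu, the secreted chaperone clusterin, was 13.8 and 198 CPM, 14.3-fold (11.4 to 18.1) higher. Krt20, a keratin of injured tubule, was 11.7-fold (7.98 to 17.4) higher from 37 and 112 UMIs. Spp1, osteopontin, was the most abundant member and went from 203 to 963 CPM, 4.75-fold (4.43 to 5.09). The list was built from genes already known for tubule injury.

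Brca2 and Spag5 reached high levels at 96 h. Brca2, which acts in the repair of DNA breaks (chr5:150522630-150570329, plus strand), had 184 UMIs (25.7 CPM) without injury and 890 UMIs (479 CPM) at 96 h, 18.6-fold (15.9 to 22) higher. Spag5, the mitotic spindle protein astrin (chr11:78301529-78322457, plus strand), had 6635 UMIs (927 CPM) without injury and 8981 UMIs (4838 CPM) at 96 h, 5.22-fold (5.05 to 5.39). It was the third most abundant transcript at 96 h, after Malat1 and the growth hormone receptor gene Ghr, which was 5052 and 6036 CPM. Genes of proliferating cells were at low levels in both libraries. Mki67 had 22 UMIs (3.08 CPM) without injury and 30 UMIs (16.2 CPM) at 96 h, 5.26-fold (2.93 to 9.56). Top2a had 21 and 29 UMIs (2.94 and 15.6 CPM), 5.32-fold (2.93 to 9.82), Pcna 31 and 10 UMIs (4.33 and 5.39 CPM), 1.24 (0.544 to 2.6), and Cdk1 2 and 11 UMIs (0.28 and 5.93 CPM), 21.2-fold (4.63 to 197), all with a mean under the 10 CPM minimum. Of 68 cell cycle and replication genes 28 were measured, 14 were higher by 2-fold or more and 0 lower, with a median log2 fold of 1.01. Smc2, a condensin subunit, was 6.15-fold (4.75 to 7.99) higher and Cenpf, a kinetochore protein, 6.06-fold (3.4 to 11). Brca1 was 3.69-fold (2.41 to 5.65) higher from 48 and 46 UMIs. Among 31 measured p53 targets and DNA damage genes 14 were higher and 0 lower, with a median of 0.83. Cdkn1a, the cyclin-dependent kinase inhibitor p21, was 6.8-fold (4.96 to 9.4) higher, and Gdf15, a stress cytokine induced by p53, 10.8-fold (8.76 to 13.3). With TMM scaling the medians of both lists stayed above 0, at 0.66 and 0.47.

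Large differences were also seen in further genes. Mrap2, an accessory protein of melanocortin receptors (chr9:87144306-87184045, plus strand), had 245 UMIs (34.2 CPM) without injury and 927 UMIs (499 CPM) at 96 h, 14.6-fold (12.7 to 16.9). Snx31, a sorting nexin gene, was 19.6-fold (14.7 to 26.7) higher and Tmsb10, which binds actin monomers, 19-fold (14.4 to 25.4). Tmsb10 is also a member of the injury marker list above. Arhgap25, a GTPase activating protein gene, was 21.3-fold (12.2 to 39.8) higher from 15 and 83 UMIs, Prr11 27-fold (12.8 to 65.5) and Shcbp1l 17.9-fold (12.7 to 25.9). The antisense transcript Gm14582 lies wholly inside Gpc3, a glypican gene, and both were higher, 19.3-fold (13.7 to 27.6) and 7.8-fold (6.98 to 8.71). Because the use of strand is not stated, reads of the pair cannot be told apart. Gm9844 had 2 and 38 UMIs and Gm9268 7 and 67 UMIs. The remaining leading genes were uncharacterised transcripts, among them 1700034P13Rik, 2310039L15Rik and 2200002D01Rik.

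Cytokine and NF-κB genes were higher more often than lower. Of 23 measured of 48 listed, 16 were higher by 2-fold or more and 3 lower, with a median log2 fold of 1.48. Csf1, the macrophage growth factor, was 8.67 and 88.3 CPM, 10.2-fold (7.57 to 13.9) higher. Icam1, an adhesion molecule for leukocytes, was 6.69-fold (5.5 to 8.16) higher and Tnfrsf1a, the main TNF receptor, 6.46-fold (4.68 to 9.0). Il15 and the chemokine gene Ccl28 were lower, at 0.316 (0.254 to 0.39) and 0.264 (0.177 to 0.381) of the level without injury. In the interferon and antigen presentation list 12 of 21 measured genes were higher and 0 lower, with a median of 1.16. Irf1, an interferon-induced transcription factor, was 4.11-fold (2.96 to 5.71) higher, and the class II gene H2-Ab1 4.43-fold (3.25 to 6.06). H2 genes are near-identical copies in places, so their counts are uncertain.

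Profibrotic and immediate early genes were higher more often than lower. Of 32 measured profibrotic and matrix genes 16 were higher and 4 lower, with a median log2 fold of 0.98. Edn1, the vasoconstrictor endothelin, was 14.7-fold (8.37 to 27.3) higher from 16 and 61 UMIs, and Cyr61, a matricellular target of YAP, 6.21-fold (5.04 to 7.67). Col4a3, a basement membrane collagen chain, was lower at 0.34 (0.305 to 0.378) of the level without injury. Of 25 measured AP-1 and immediate early genes 17 were higher and 1 lower, with a median of 1.31. Jund, an AP-1 subunit, was 8.81-fold (6.07 to 13) higher and Runx1, a transcription factor, 8.07-fold (5.22 to 12.7). Gadd45g, a growth arrest gene, was the lower member of that list, 489 and 168 CPM and a ratio of 0.344 (0.305 to 0.386).

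Redox, unfolded protein, proteasome and lysosomal genes had a larger share of higher members than the 18.8% over all genes, and heat shock genes a smaller one. Of 33 measured NRF2, glutathione and ferroptosis defence genes 13 were higher and 0 lower, with a median of 0.84. Hmox1, haem oxygenase, was 4.68-fold (3.5 to 6.26) higher and Srxn1, which repairs peroxiredoxins, 6.07-fold (4.02 to 9.26). Gpx3, the secreted glutathione peroxidase of the proximal tubule, was among the 5 most abundant transcripts at 96 h with 13563 UMIs (1896 CPM) without injury and 8675 UMIs (4673 CPM) at 96 h, 2.46-fold (2.4 to 2.53). Its difference was under 2-fold with TMM scaling. Among iron and metallothionein genes 7 of 24 were higher and 2 lower, and the median of 0.31 turned to −0.04 with TMM scaling. The ferritin heavy chain gene Fth1 was 2.1-fold higher, under 2-fold with TMM scaling, and the metallothionein genes Mt1 and Mt2 4.39-fold (3.73 to 5.17) and 6.39-fold (5.14 to 7.98), with counts that near-identical copies may share. Of 24 unfolded protein and stress response genes 9 were higher and 0 lower, among them the chaperone Calr, 3.95-fold (3.43 to 4.55). Heat shock genes had 2 of 16 higher and 0 lower, and a median of 0.40 that was 0.04 with TMM scaling. In the lysosome and autophagy list 13 of 31 genes were higher and 0 lower, including the proteases Ctsd, 5.78-fold (5.18 to 6.46), and Ctsl, 4.02-fold (3.28 to 4.92), and the sphingolipid activator Psap, 3.11-fold (2.92 to 3.32). Proteasome subunits had 10 of 31 higher and 0 lower.

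The cytoskeleton list was among those with many higher members. Of 40 measured actin, tubulin and intermediate filament genes 24 were higher by 2-fold or more and 0 lower, with a median of 1.27. Actb, cytoplasmic beta actin, was 55.5 and 481 CPM, 8.66-fold (7.68 to 9.77) higher, and Krt8, an epithelial keratin, 6.72-fold (5.05 to 8.99). Among cell junction genes 11 of 32 were higher and 0 lower, with a median of 0.44 that was 0.08 with TMM scaling. The claudin genes Cldn3 and Cldn7 were 6.55-fold (3.66 to 12) and 5.26-fold (3.66 to 7.58) higher. Six2, the nephron progenitor factor, was 22.5 and 155 CPM and 6.87-fold (5.64 to 8.39) higher, in mice that carry a Six2 transgene, and the source of these UMIs was not tested. Of the 17 measured progenitor and dedifferentiation genes 5 were higher and 0 lower.

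**Figure D2:**
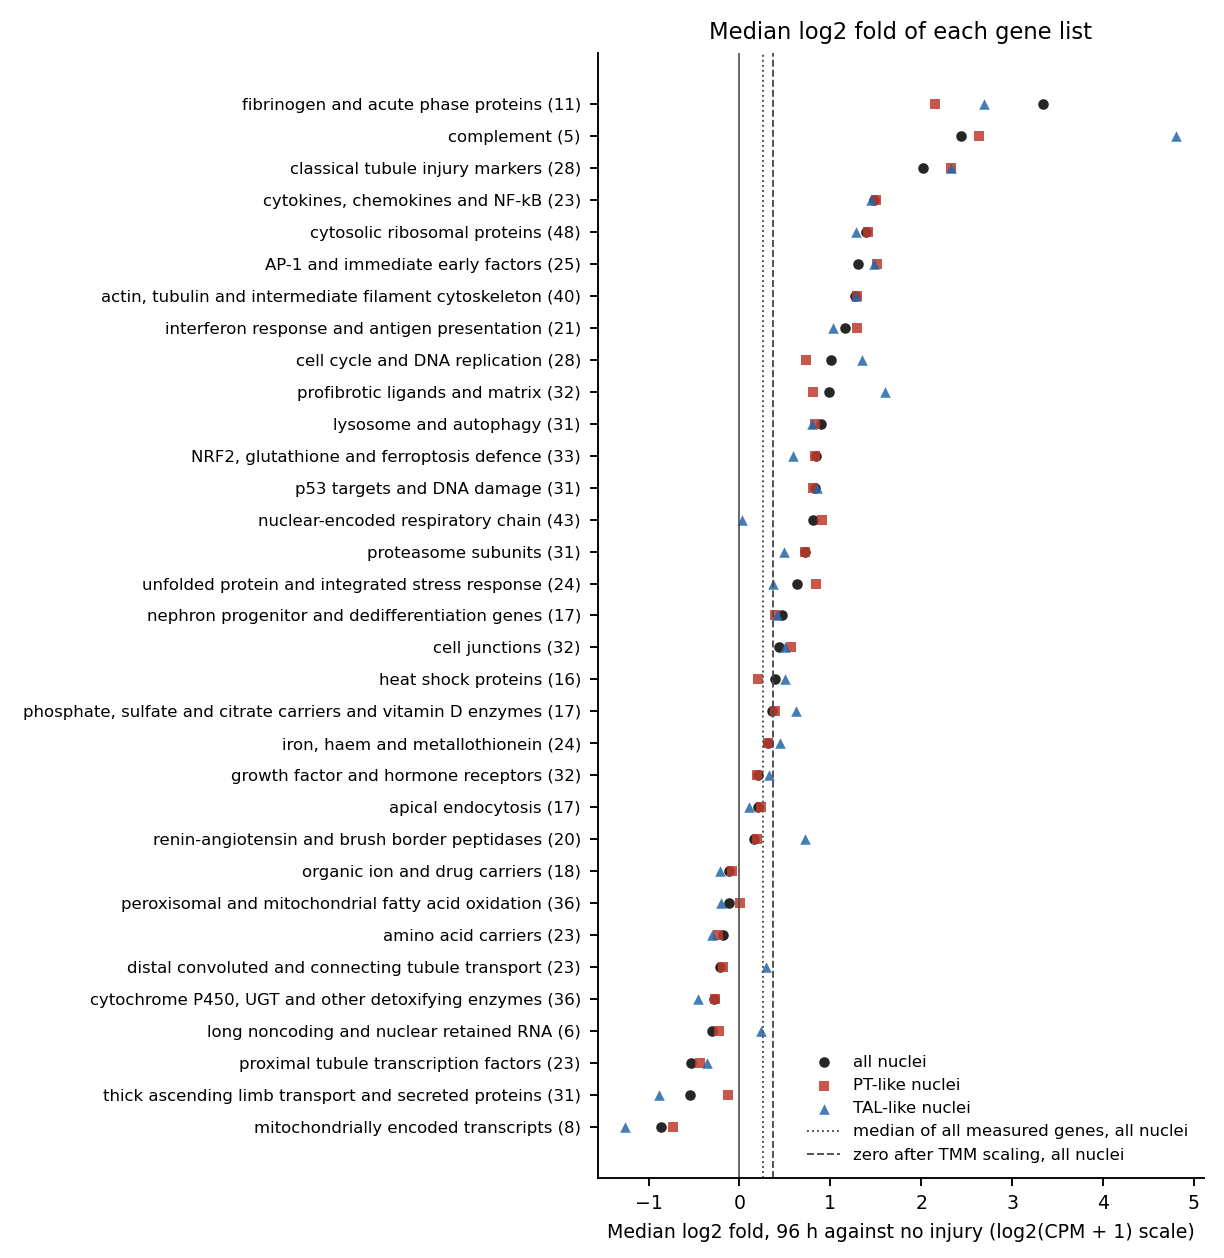
Median log2 fold (96 h over no injury, log2(CPM + 1) scale) of the measured members of 33 gene lists, for all nuclei, PT-like nuclei and TAL-like nuclei, with the number of members measured in all nuclei in brackets. The dotted line is the median of all measured genes over all nuclei, 0.25, and the dashed line marks where 0 lies with TMM scaling. Acute phase, complement and injury lists lie at the right with medians of 3.34, 2.44 and 2.02 over all nuclei, and mitochondrially encoded transcripts at the left with −0.87.

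On the other side, the leading lower genes included products of differentiated tubule. Lpl, lipoprotein lipase (chr8:68880491-68907448, plus strand), had 1284 UMIs (179 CPM) without injury and 10 UMIs (5.39 CPM) at 96 h, a ratio of 0.030 (0.0144 to 0.0554). Slco1a1, an organic anion transporter of the proximal tubule (chr6:141907282-141946962, minus strand), had 390 UMIs (54.5 CPM) without injury and 3 UMIs (1.62 CPM) at 96 h, a ratio of 0.0296 (0.00609 to 0.0873). Cyp7b1, an oxysterol hydroxylase of the last proximal segment (chr3:18071950-18243338, minus strand), had 3218 UMIs (449.8 CPM) without injury and 61 UMIs (32.9 CPM) at 96 h, 0.0731 (0.0557 to 0.0941). Keg1, a kidney-expressed gene (chr19:12695786-12719902, plus strand), was the second most abundant transcript without injury after Malat1 and had 49489 UMIs (6918 CPM) without injury and 2496 UMIs (1345 CPM) at 96 h, 0.194 (0.187 to 0.202). Its gene overlaps another annotated transcript on 57.4% of its length. Hsd3b2, a steroid dehydrogenase gene that lies inside the annotated Zfp697, was 1036 and 202 CPM, 0.195 (0.175 to 0.216). The carrier gene Slc22a7 stood at 0.0542 (0.0198 to 0.119), the cytochrome gene Cyp2d12 at 0.115 (0.0734 to 0.173), the aldo-keto reductase gene Akr1c14 at 0.102 (0.0435 to 0.203) and the aldose reductase gene Akr1b3 at 0.123 (0.0665 to 0.208). The Wnt inhibitor Dkk2 was at 0.0932 (0.0462 to 0.168), the potassium channel gene Kcnj2 at 0.0586 (0.0159 to 0.152), the alpha-catenin gene Ctnna2 at 0.0803 (0.054 to 0.115), and the zinc finger gene Klf12 at 0.149 (0.115 to 0.191). Egf, the growth factor precursor of the distal tubule (chr3:129677565-129755316, minus strand), was 702 and 100.2 CPM, 0.143 (0.123 to 0.165). Aspdh, Dnase1 and Tmem207 were at 0.127, 0.123 and 0.0733 of the level without injury, and the uncharacterised transcript Gm16004 at 0.0944.

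Carriers of the proximal tubule had both higher and lower members. Among organic ion and drug carriers 5 of 18 measured genes were at least 2-fold lower and 1 higher, with a median log2 fold of −0.11. Slc22a28 and Slc22a30, members of the organic anion transporter family, were lower at 0.242 (0.219 to 0.268) and 0.243 (0.215 to 0.273), with counts that close paralogues may share. Abcc2, an apical efflux pump, was the higher member at 2.63-fold (2.46 to 2.82). Of 23 amino acid carriers 4 were higher and 2 lower, with a median of −0.18. These shares, 17.4% and 8.70%, were near the 18.8% and 4.91% over all genes. Slc7a13, a cystine and aspartate carrier of the last proximal segment, was lower at 0.202 (0.179 to 0.227), whereas its relative Slc7a12 was 6.03-fold (4.34 to 8.43) higher from 62 and 97 UMIs. Slc6a18, a glycine carrier, was 2.35-fold (2.21 to 2.49) higher, under 2-fold with TMM scaling. Among phosphate, sulfate and citrate carriers 7 of 17 were higher and 3 lower, and the median of 0.36 was −0.01 with TMM scaling. Within it the phosphate carriers diverged: Slc34a1, the main one of the proximal tubule, was at 0.64 (0.62 to 0.662), Slc34a3 at 0.138 (0.0653 to 0.257), and Slc34a2 was 7.01-fold (4.51 to 11.1) higher from 33 and 60 UMIs. The housekeeping phosphate carrier Slc20a1 was 3.26-fold (2.97 to 3.57) higher and Slc13a3, a dicarboxylate carrier, 3.25-fold (2.97 to 3.55). Klotho (Kl), the co-receptor for the phosphate hormone FGF23, was 321 and 152 CPM, 0.474 (0.417 to 0.536). The endocytic receptors for filtered protein were 0.69 (0.653 to 0.728) for Lrp2 (megalin) and 0.491 (0.448 to 0.538) for Cubn (cubilin), and their adaptor Dab2 was at 0.472 (0.457 to 0.487).

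Detoxifying enzymes held the highest number of lower members among the proximal tubule lists. Of 36 measured genes 12 were lower and 4 higher, with a median of −0.28. Kap, an androgen-regulated protein of the proximal tubule, was at 0.269 (0.245 to 0.295), and the glucuronosyltransferase gene Ugt2b38 at 0.228 (0.20 to 0.258), with paralogues close in sequence. The glutathione transferase gene Gstp1 was 5.4-fold (3.3 to 8.93) higher. Of 23 transcription factors and coactivators of the proximal tubule 7 were at least 2-fold lower and 0 higher, with a median of −0.54. Zbtb20, a repressor that was the third most abundant transcript without injury, was 6399 and 2878 CPM, 0.45 (0.437 to 0.463). Trps1 was at 0.452 (0.431 to 0.475), the bile acid receptor gene Nr1h4 at 0.431 (0.395 to 0.469) and Ppargc1a, a coactivator of mitochondrial biogenesis, at 0.419 (0.372 to 0.47). Hnf4a, a master regulator of the segment, was 169 and 194 CPM, a ratio of 1.15 (1.02 to 1.29). Fatty acid oxidation genes had 5 of 36 lower and 2 higher with a median of −0.12, among them the peroxisomal enzyme Ehhadh at 0.232 (0.194 to 0.275). In the same pathway Hsd17b4, another peroxisomal enzyme, was 2.63-fold (2.42 to 2.86) higher.

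Hormone receptors and brush border peptidases had both higher and lower members. Of 32 growth factor and hormone receptors 6 were higher and 4 lower, with a median of 0.20 that was −0.17 with TMM scaling. Their share of higher members, 18.8%, was that over all genes. Ddr2, a collagen receptor, was 6.96-fold (5.28 to 9.23) higher and Epha2, an ephrin receptor, 5.17-fold (3.44 to 7.82), while Mertk, a receptor for dying cells, was at 0.442 (0.368 to 0.528). Of 20 renin-angiotensin and peptidase genes 5 were higher and 2 lower, with a median of 0.16 and −0.20 with TMM scaling. Mme, neprilysin, was 3.21-fold (2.66 to 3.86) higher and Agtr1a, the angiotensin II receptor, was at 0.409 (0.336 to 0.494).

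The lists of distal tubule genes held more lower than higher members over all nuclei. Of 31 TAL transport and secreted protein genes 10 were lower and 1 higher, with a median of −0.54. Slc12a1 had 7744 UMIs (1082 CPM) without injury and 660 UMIs (356 CPM) at 96 h, a ratio of 0.328 (0.303 to 0.356). Among DCT and connecting tubule genes 4 of 23 were lower and 0 higher, with a median of −0.21, and Slc8a1, the sodium-calcium exchanger, and Calb1, a cytosolic calcium buffer, were at 0.249 (0.227 to 0.273) and 0.188 (0.115 to 0.291). Over all nuclei, fewer distal nuclei in the sort and less RNA of these genes per nucleus cannot be told apart.

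Gene length went with the direction of the difference. Across 9557 genes with a length, 99.9% of those measured, the correlation between log2 fold and gene length was −0.34 (Spearman) and −0.28 (Pearson with log length). This is a description over genes of a single pair of libraries, and genes are not independent replicates. In 5 groups of equal size from short to long, with median lengths of 6.02, 16.5, 31.5, 60.5 and 163 kb, the median log2 fold was 0.74, 0.43, 0.21, 0.01 and −0.08. The share at least 2-fold higher was 34.1% in the shortest and 13.7% in the longest group, and the share at least 2-fold lower was 2.46% and 9.42%. Genes longer than 100 kb held 31.4% of UMIs without injury and 26.9% at 96 h. Genes under 10 kb, Malat1 among them, held 28.3% and 27.9%. The same order of medians was seen in PT-like nuclei, from 0.77 to −0.02, and in TAL-like nuclei, from 0.64 to −0.09. Ribosomal protein genes, which are short, were 41 of 48 higher and 0 lower with a median of 1.39, led by Rpl38, 10.1-fold (8.04 to 12.8). Respiratory chain genes of the nucleus were higher in 15 of 43 and lower in 0, for example Cox7c, 3.27-fold (2.88 to 3.72). Transcripts encoded by the mitochondrial genome were lower in 4 of 8 and higher in 0, for example mt-Co3, 0.436 (0.376 to 0.502), and made up 0.0888% of UMIs without injury and 0.0483% at 96 h. The nuclear RNA Malat1 took 20.8% and 15% of UMIs. The part of these differences in captured RNA in the values of single genes was not tested.

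**Figure D3:**
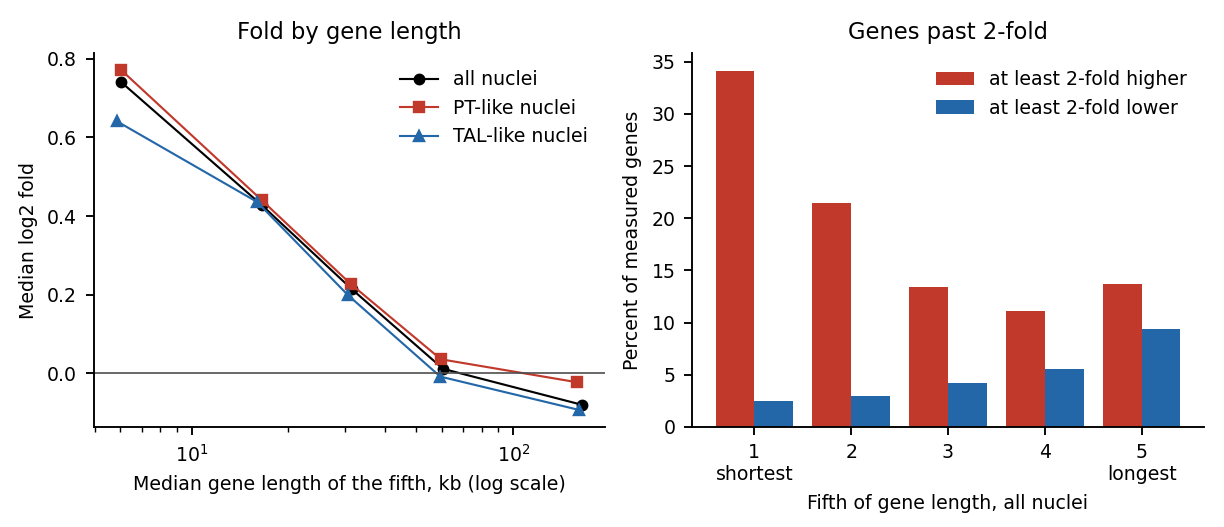
Left, median log2 fold (96 h over no injury) of genes in 5 groups of equal size by gene length, in kb on a log axis, for all, PT-like and TAL-like nuclei. Right, percent of genes at least 2-fold higher or lower in the same groups over all nuclei. The median over all nuclei runs from 0.74 in the shortest group to −0.08 in the longest.

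To compare within segments, UMIs were summed over clusters named by markers. Names carry "-like" because they rest on transcripts. PT-like nuclei numbered 2288 without injury and 2180 at 96 h, with median depths of 1934.5 and 504 UMIs. Different clusters held them: at 96 h 1351 nuclei lay in a cluster led by Fgg and Brca2, which had no PT marker among its 10 leading genes and 6 nuclei without injury, and 508 in a cluster led by Alpl, Npl and Slc5a12. Without injury 859 lay in a cluster with Gldc and Slc5a2 among its leading genes and 790 in a cluster led by Slco1a1. The Slco1a1 cluster likewise had no PT marker among its 10 leading genes. PT markers summed to 34139.8 and 20733 CPM in PT-like nuclei, and those of every other class to at most 809.9 CPM at 96 h.

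Fgg also led the higher genes of PT-like nuclei, and Lpl and Slco1a1 the lower ones. Fgg and Brca2 also lead the cluster that holds most of these nuclei at 96 h. Slco1a1 leads a cluster with 790 nuclei without injury and 2 at 96 h, and Cyp2d12 is among its leading genes. Lpl, Cyp7b1, Slc22a7 and Ctnna2 are among the leading genes of another cluster, with 219 and 50. The values of these genes in PT-like nuclei are therefore a description. Of 9078 measured genes 1825 (20.1%) passed 2-fold upward and 418 (4.6%) downward, around a median log2 fold of 0.28. TMM scaling moved the log2 ratios of CPM by −0.42 and gave 873 higher and 1106 lower, so that the share of higher calls went from 81.4% to 44.1%. Fgg had 2 UMIs (0.412 CPM) without injury and 94 UMIs (77.6 CPM) at 96 h, 188-fold (50.7 to 1578). Fgb and Lcn2 each had 0 UMIs without injury and 28 at 96 h, each at least 28.4-fold higher by the exact interval and 37.4-fold when 3 counts are taken for the 0. Lpcat2, a lysophospholipid acyltransferase gene, had 3 and 60 UMIs, 80.1-fold (26.1 to 399). C3 was 24.6-fold (14.1 to 45.7) higher, Brca2 16.7-fold (13.9 to 20.3), Tmsb10 24.2-fold (15.2 to 40.5), Mrap2 15-fold (12.6 to 18.1) and Chst8, a sulfotransferase gene, 21.4-fold (12.2 to 39.9). Lpl had 983 UMIs (203 CPM) without injury and 3 UMIs (2.48 CPM) at 96 h, a ratio of 0.0122 (0.00252 to 0.0358), and Slco1a1 322 and 1 UMIs, 0.0124 (0.000314 to 0.0698). Cyp7b1 was at 0.0573 (0.0404 to 0.0788), Ctnna2 at 0.0647 (0.0394 to 0.10), Klf12 at 0.11 (0.0765 to 0.153), Slc22a7 at 0.0691 (0.0252 to 0.152) and Cyp2d12 at 0.131 (0.0803 to 0.201).

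By list, PT-like nuclei held 17 of 20 injury markers higher and 0 lower (median 2.33), 8 of 9 acute phase genes higher and 0 lower (2.15), and 4 of 5 complement genes higher and 0 lower (2.63). Here too Fgb, Fgg and Lcn2 were measured only through their level at 96 h. Cytokine genes had 15 of 21 higher and 3 lower, and AP-1 genes 14 of 20 higher and 1 lower. Detoxifying enzymes had 12 of 36 lower and 6 higher, and transcription factors 6 of 23 lower and 1 higher. The endocytosis list had 0 of 17 lower and 1 higher. Heat shock genes had a median of 0.21 that was −0.20 with TMM scaling, fatty acid oxidation genes 0.01 and −0.41, and progenitor genes 0.40 and −0.01, so these directions depend on the scaling.

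The leading PT genes were found in a minority of nuclei. After thinning each nucleus to 300 UMIs, which left out 165 PT-like and 57 TAL-like nuclei at 96 h and none without injury, Fgg had a UMI in 40 of 2015 (1.99%, 1.42 to 2.69) PT-like nuclei at 96 h and in 0 of 2288 (0%, 0 to 0.161) without injury. Unthinned, the shares were 3.44% and 0.0874%. In TAL-like nuclei the thinned share of Fgg was 0.286% at 96 h, with a median depth of 409 UMIs. Fgg was higher there too, from 2 UMIs without injury and 6 at 96 h, 6.46-fold (1.16 to 65.5), so these nuclei are no blank for it. Brca2 had a UMI in 11.7% of thinned PT-like nuclei at 96 h and 1.05% without injury (20.4% and 5.77% unthinned), against 3.71% and 0.304% of TAL-like nuclei. C3 was in 2.08% and 0.0437% of thinned PT-like nuclei (3.67% and 0.656% unthinned), against 0.857% and 0% of TAL-like nuclei. Spp1 was in 19.6% and 2.4% of PT-like nuclei (29.7% and 14.9% unthinned), and in 33.1% and 7.29% of TAL-like nuclei. The carrier Slc34a1 was in 49.9% of thinned PT-like nuclei at 96 h and 70% without injury (62.1% and 98.6% unthinned). Its share in TAL-like nuclei, which should lack it and serve as background, was 9.43% and 20.4%.

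TAL-like nuclei numbered 329 without injury and 407 at 96 h, with median depths of 1097 and 409 UMIs, and 10 CPM stood for 4.00 and 1.85 UMIs. At 96 h 398 of them lay in a single cluster led by Clu and Lcn2, which held 18 nuclei without injury, and the other 311 nuclei without injury lay in a pair of clusters of 216 and 95. The name held less firmly at 96 h. TAL markers summed to 25192 CPM without injury and 5704 at 96 h, DCT markers to 1169 and 3094 CPM and connecting tubule markers to 360.3 and 1590.3 CPM, so this class carried more RNA of other distal segments at 96 h. Values are therefore also given for clusters at a finer resolution of 2.0 (324 and 201 nuclei) and for nuclei named singly by their own marker UMIs (324 and 125 nuclei). The resolution of 2.0 for single genes was added after the data had been seen.

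Clu and Lcn2 led the higher genes of TAL-like nuclei. Both also lead the cluster that holds most of these nuclei at 96 h, so their values there are a description. Of 9848 measured genes 2571 (26.1%) passed 2-fold upward and 1201 (12.2%) downward, around a median log2 fold of 0.22. The interval excluded 1 for 1293 of the higher and 548 of the lower calls. TMM scaling moved log2 ratios of CPM by −0.33 and gave 1675 higher and 1828 lower, and the share of higher calls went from 68.2% to 47.8%. It was 56.0% with no filter on low counts and 54.3% with nuclei thinned to 300 UMIs. Clu had 7 UMIs (17.5 CPM) without injury and 179 UMIs (965 CPM) at 96 h, 55.1-fold (26.2 to 139), and Lcn2 1 and 56 UMIs, 121-fold (20.8 to 4849). Thinned to 300 UMIs, Clu had a UMI in 18.6% of TAL-like nuclei at 96 h and 0.304% without injury (27.3% and 0.912% unthinned), against 2.13% and 0.131% in PT-like nuclei. Lcn2 had a UMI in 28 of 350 (8.0%, 5.38 to 11.4) and 0 of 329 (0%, 0 to 1.11). Its shares were 11.3% and 0.304% unthinned, and 0.695% and 0% in thinned PT-like nuclei.

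Several other TAL-like leaders rested on few UMIs without injury. Adamts1, a matrix protease, had 2 and 45 UMIs, 48.5-fold (12.7 to 412). Edn1 had 1 and 29 UMIs, Tmsb10 1 and 34 UMIs and Ifitm10 1 and 31 UMIs, with lower interval bounds of 10.4, 12.3 and 11.1. The lysosomal protease Ctsd, which overlaps another annotated gene on 55.7% of its length, had 27 UMIs (67.6 CPM) without injury and 192 UMIs (1035 CPM) at 96 h, 15.3-fold (10.2 to 23.9). Slc8a1 and the DCT cotransporter gene Slc12a3 were 19.9-fold (12.9 to 32) and 13.7-fold (10.2 to 18.8) higher, but at resolution 2.0 they had 23 and 0 and 50 and 2 UMIs and were lower at 96 h. Both are markers of other classes in the naming, so these values are not independent of it. The other 8 leading higher genes stayed at least 2-fold higher at resolution 2.0. With marker UMIs their folds were also past 2-fold, but on few counts: Edn1 had 1 and 1 UMIs, with an interval of the ratio from 0.0902 to 556, and Gm13247 9 and 5 UMIs.

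The 10 leading lower genes of TAL-like nuclei stayed at least 2-fold lower under both other ways of naming nuclei. Sgcz, Tmem207, Tenm2 and Slc12a1 are among the 10 leading genes of a TAL-like cluster with 216 nuclei without injury and 7 at 96 h. Egf and Umod are among those of another, with 95 and 2. The values of these genes in TAL-like nuclei are therefore a description. Egf had 3042 UMIs (7612 CPM) without injury and 127 UMIs (685 CPM) at 96 h, a ratio of 0.0899 (0.0747 to 0.107), which was 0.184 at resolution 2.0 and 0.271 with marker UMIs. Sgcz, a sarcoglycan gene, had 871 UMIs (2179.6 CPM) without injury and 17 UMIs (91.6 CPM) at 96 h, 0.042 (0.0244 to 0.0677). Tmem207 had 189 and 3 UMIs, 0.0342 (0.00699 to 0.101), and Lrrc66 60 and 0 UMIs, at least 7.32-fold lower by the exact interval and 9.28-fold when 3 counts are taken for the 0. Slc9a3, the apical sodium-proton exchanger, was at 0.122 (0.0597 to 0.222), the axon guidance receptor gene Robo2 at 0.0724 (0.0194 to 0.19), Rgs7 at 0.0783 (0.021 to 0.206), Tenm2 at 0.124 (0.0784 to 0.187) and Ranbp3l at 0.118 (0.0755 to 0.176). Slc12a1 was 12859.8 and 3116 CPM, a ratio of 0.242 (0.222 to 0.264), but 0.497 at resolution 2.0 and 0.737 with marker UMIs. Umod, uromodulin, was at 0.519 (0.429 to 0.624), with 1.00 at resolution 2.0 and 1.33 with marker UMIs. These last 2 genes thus depended on how nuclei were assigned, whereas Egf was at least 2-fold lower under each. Slc12a1, Umod, Egf and Tmem207 are among the 11 TAL markers used for naming, so their values are not independent of it. Naming by marker UMIs needs at least 3 in a nucleus, at median depths of 1094.5 UMIs without injury and 405 at 96 h.

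By list, TAL-like nuclei had 21 of 26 injury markers higher and 0 lower, with a median of 2.32 (2.20 with the 3 genes at 0 set at their bound). Of profibrotic genes 20 of 34 were higher and 4 lower, with a median of 1.61 (1.52 with 3 genes at their bound). Cytoskeleton genes had 26 of 39 higher and 1 lower, and cell cycle genes 20 of 29 higher and 0 lower. TAL transport and secreted protein genes had 17 of 37 lower and 2 higher, with a median of −0.88. Respiratory chain genes had 3 of 43 higher and 1 lower, with a median of 0.03 that was −0.29 with TMM scaling. In PT-like nuclei 21 of 43 were higher, and this difference between segments was not tested.

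Of the 8287 genes measured in both PT-like and TAL-like nuclei, 959 were at least 2-fold higher and 146 at least 2-fold lower in both. Another 36 were higher in PT-like and lower in TAL-like nuclei, and 13 the reverse. Among these, 13 genes had counting intervals that excluded a ratio of 1 in both segments, 11 of them higher in PT-like nuclei. Of these 13, 1 is not reported here by name. Nrp1, a co-receptor for vascular endothelial growth factor and semaphorins, had 507 and 398 UMIs in PT-like nuclei, 3.14-fold (2.75 to 3.59), and 157 and 31 UMIs in TAL-like nuclei, 0.425 (0.28 to 0.628). Cacnb2, a calcium channel subunit, was 6.28-fold (3.89 to 10.3) and 0.264 (0.136 to 0.472). Socs2, a feedback inhibitor of growth hormone signalling, was lower in PT-like nuclei at 0.311 (0.175 to 0.518) and 2.15-fold (1.16 to 4.02) higher in TAL-like nuclei. Mpped2 was at 0.207 (0.0877 to 0.418) and 9.69-fold (2.01 to 92.2). At resolution 2.0, 7 of the 13 kept opposite calls, and with marker UMIs 1 did.

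**Figure D4:**
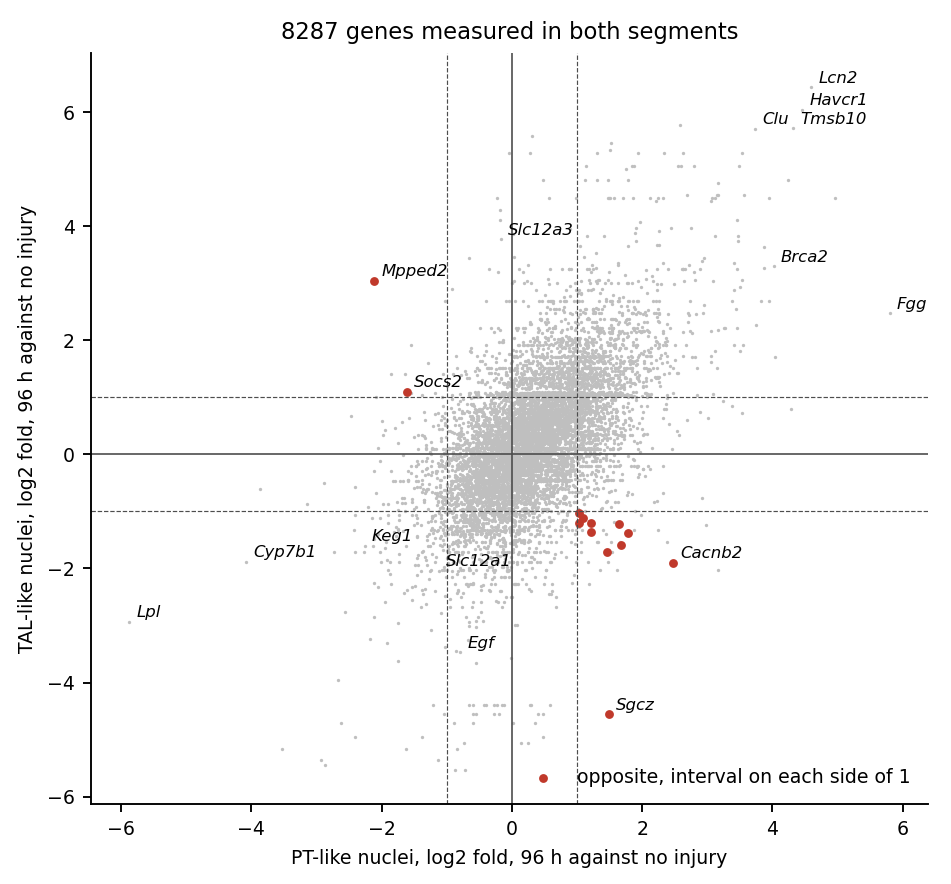
Log2 fold (96 h over no injury) of 8287 genes in PT-like nuclei (horizontal) and TAL-like nuclei (vertical), with the 13 genes in red whose folds were opposite and whose counting intervals excluded 1 in both. Sgcz lies at 1.49 and −4.56, and Mpped2 at −2.11 and 3.04.

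The cluster led by Vcam1, Havcr1 and Krt20 was in both libraries, with 62 nuclei without injury and 419 at 96 h. It was called from these genes, whose values in it are a description, and given no segment name. Of 9186 measured genes, 2750 (29.9%) were at least 2-fold higher and 921 (10.0%) lower. The interval excluded 1 for 1003 of these higher and 353 of these lower genes, against all 1795 and 470 over all nuclei. In this cluster 10 CPM stood for 1.26 UMIs without injury and 3.44 UMIs at 96 h. Inside it Havcr1 had 20 and 163 UMIs, 3.0-fold (1.88 to 5.04), Spp1 34 and 426 UMIs, 4.61-fold (3.25 to 6.74), and C3 13 and 88 UMIs, 2.49-fold (1.38 to 4.86). Brca2 had 5 and 254 UMIs, 18.7-fold (7.9 to 58), and Spag5 118 UMIs (933 CPM) without injury and 2818 UMIs (8199.6 CPM) at 96 h, 8.79-fold (7.31 to 10.7). Slc34a1 was at 0.292 (0.236 to 0.36) and Vcam1, an adhesion molecule, at 0.566 (0.337 to 0.966). Thin limb-like nuclei numbered 313 without injury and 117 at 96 h, and this name is uncertain. Thin limb markers summed to 1891 and 1961 CPM in them, and PT markers to 8535 and 3570 CPM. Marker UMIs named 45 and 13 nuclei thin limb-like, and resolution 2.0 named 284 and 24. The 313 and 117 nuclei had 3018 (30.8%) genes higher and 1266 (12.9%) lower of 9788, with 10 CPM at 0.683 UMIs at 96 h. In these nuclei the interval excluded 1 for 1192 of the higher and 223 of the lower genes. There Spag5 had 155 and 259 UMIs, 11.1-fold (9.1 to 13.7), and Brca2 3 and 31 UMIs, 68.9-fold (21.5 to 352), so these 2 genes were higher in each class examined: Brca2 was also 10.4-fold (4.25 to 30.7) higher and Spag5 4.22-fold (3.4 to 5.27) higher in TAL-like nuclei, and Spag5 4.26-fold (4.1 to 4.43) in PT-like nuclei.

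The levels at 96 h were set beside those of the other GFP-positive libraries, in the order no injury, 64 h, 96 h and 28 d after IRI. Fgg was at 1.12, 18.9, 69.5 and 1.86 CPM, Lcn2 at 0.559, 17.8, 52.8 and 3.45 CPM and Brca2 at 25.7, 88.4, 479 and 61 CPM. Spag5 was at 927, 1558, 4838 and 1928 CPM and C3 at 5.87, 12.4, 101 and 24.2 CPM. Like Fgg, Lcn2 and Brca2, both were above the level without injury in each of the later libraries. Mrap2 was at 34.2, 413, 499 and 34.5 CPM, so that the 64 h and 96 h libraries stood together. Lpl was at 179, 10.2, 5.39 and 34.2 CPM, Slco1a1 at 54.5, 4.67, 1.62 and 73 CPM, Cyp7b1 at 449.8, 9.33, 32.9 and 461 CPM and Keg1 at 6918, 1390.5, 1345 and 5079 CPM. Of the 20 leading higher genes, all 20 had their highest level of these 4 libraries at 96 h, the library by which they were chosen. Of the 20 leading lower genes, 13 were lowest at 96 h, 6 at 64 h and 1 at 28 d. With 1 library per time no order of times could be tested.

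**Figure D5:**
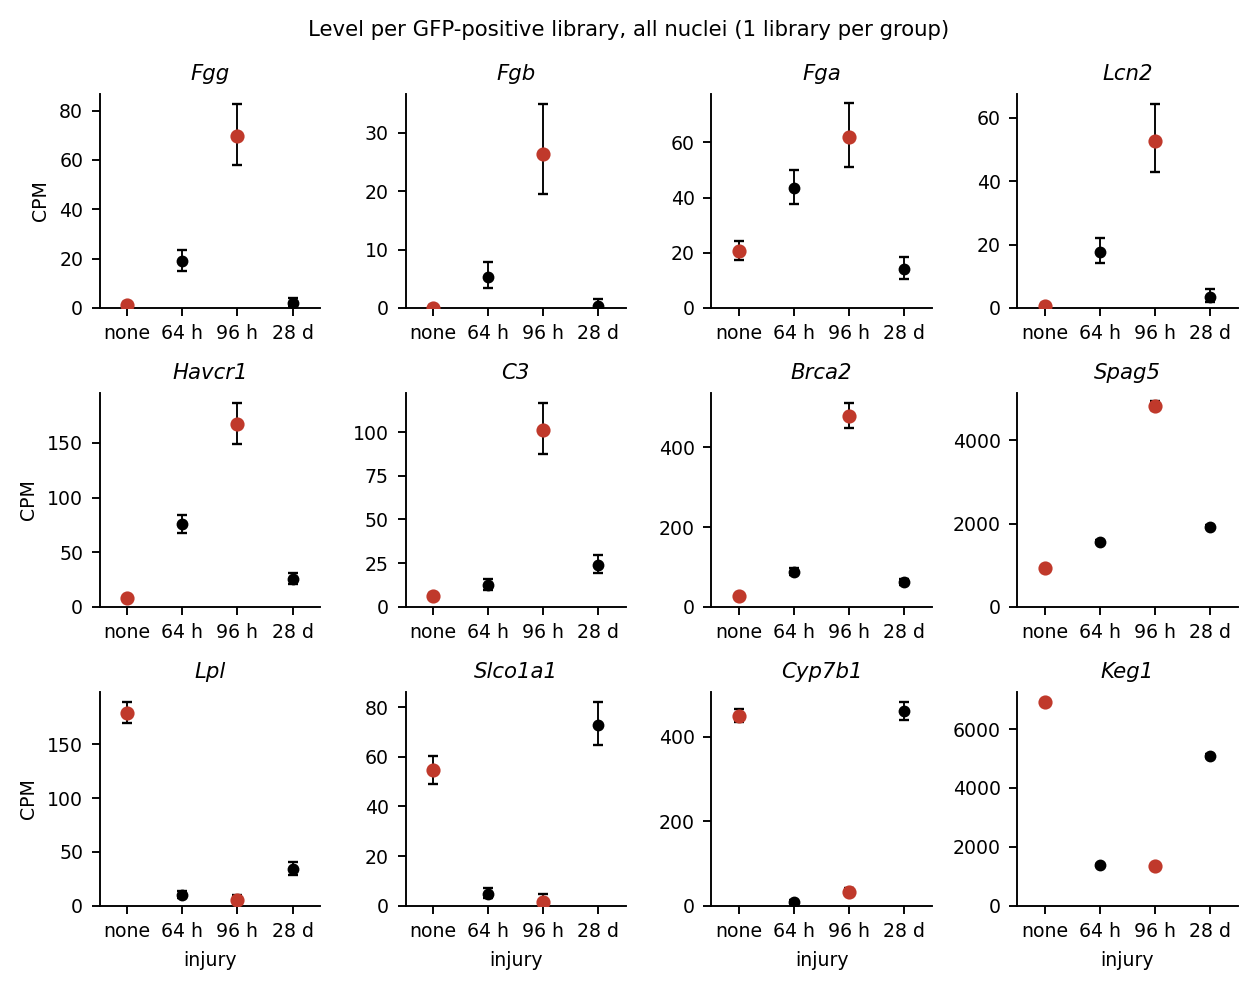
CPM of 12 genes named in the text over all nuclei in the 4 GFP-positive libraries, with 95% Poisson intervals for counting error, and the compared pair in red. Fgg reaches 69.5 CPM at 96 h and 1.86 CPM at 28 d, and Lpl is at 179 CPM without injury and 5.39 CPM at 96 h.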

How the data were processed

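The deposited matrices hold UMI counts per gene and nucleus. Per the submitters' processing notes, the authors used bcl2fastq 2.17, STAR 2.5.1b and Cell Ranger 2.1 on mm10, and per the series text the reference was a pre-mRNA one. The use of strand in counting is not given in the sources used here, and the authors' merged analysis was not used. The 27998 genes include 56 symbols that stand for more than 1 gene, which were kept apart by identifier, and 274 of 274 named genes matched GENCODE vM21 positions.

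Barcodes with at least 200 genes were kept. Of 3508 deposited barcodes at 96 h, 306 were under 200 genes, and a limit of 10% mitochondrial UMIs was applied. The compared libraries share 16 barcodes. No doublet caller was run. All 5 libraries were clustered together in scanpy 1.11.5 (counts normalised to 10000, log transform, 2000 variable genes, 30 components, 15 neighbours, Leiden resolution 1, seed 0, no integration). Clusters were named from 17 marker classes by the mean log2 ratio of marker levels (10 CPM added), with a lead of at least 0.3 in score, and clusters deeper than 1.5 times their libraries with another class above 1.5 stayed unnamed. The scoring was set with the data known, as taken from earlier work on these files.

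UMIs were summed per library over all nuclei, PT-like, TAL-like, thin limb-like and injury-led nuclei, and expressed as CPM. A gene was measured where the mean of both libraries was at least 10 CPM, and called where the log2 fold with a pseudocount of 1 CPM passed 2-fold. With 1 library per group no p-value, standard error or test was computed. Ratios carry exact conditional Poisson intervals and shares exact Clopper-Pearson intervals, both at 95% and for counting error only. UMIs of 0 were set at a floor of 3 counts per library for bounds. The comparison was tested on simulated data.

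Genes named were the 20 higher and 20 lower over all nuclei (12 and 12 in PT-like, 10 and 10 in TAL-like nuclei) whose interval bound nearest 1 was farthest from 1, genes of opposite direction in PT-like and TAL-like nuclei with both intervals excluding 1, the 5 most abundant transcripts per library, and in each of 33 lists the 3 most abundant and up to 3 higher and 3 lower members. Fibrinogen chains and cell type markers were always eligible. Not every gene so chosen is printed. Named outside this rule, after their values were seen, were Brca1, Cebpb, Gpc3, Hnf4a, Krt8, Mki67, Top2a, Pcna, Cdk1, Cd74, Diaph3, Krt18 and Tpx2. Some genes that the rule names are not reported here. Genes of 5 glucose lists were left out. The members and lists were chosen with earlier results of these data known. Alternatives were TMM scaling (edgeR 4.0.16, R 4.3.3), no filter on low counts, at least 400 genes, every barcode, thinning to 300 UMIs, Malat1 left out of the totals, a pseudocount of 5 CPM, means of per-nucleus CPM, other resolutions, marker UMIs of each nucleus (at least 3 and 2 times the next class) and clustering of the 2 libraries alone. Added after the data had been seen were PT-like nuclei with the injury-led cluster and single genes at resolution 2.0. Sums and intervals used scipy 1.17.1 and pandas 2.3.3, clustering igraph 0.11.9 and scikit-learn 1.9.0, and plots matplotlib 3.10.9, under Python 3.11.15 with numpy 2.4.6.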

Additional observations from a re-analysis of the deposited data

Results flagged for a closer look

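In 13 genes, 12 of them named here, the PT-like and TAL-like nuclei of the same pair of libraries moved in opposite directions, with counting intervals that excluded a ratio of 1 in both. Each segment had 1 library per group, so the difference between segments was not tested. The log2 fold in PT-like nuclei minus that in TAL-like nuclei was 6.05 for Sgcz, 4.38 for Cacnb2, 3.17 for Pde7b, 3.15 for Samd12 and 2.87 for Nrp1. It was 2.58 for Dnmbp, 2.41 for Isyna1, 2.23 for Gm26561, 2.21 for Cadm2 and 2.06 for Zbtb16. In the other direction it was −5.16 for Mpped2 and −2.71 for Socs2. The TAL-like class at 96 h held 3094 CPM of DCT markers against 1169 CPM without injury, and the part of this in the differences was not tested. At resolution 2.0 the calls of Cadm2, Dnmbp, Isyna1, Nrp1, Samd12 and Zbtb16 were no longer opposite past 2-fold. With marker UMIs 12 of the 13 no longer were, Sgcz then at −0.46 in PT-like nuclei and Mpped2 with 4 and 0 UMIs in TAL-like nuclei.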

How the results depend on the processing

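No paired analysis was possible because each group was 1 library, and no library could be left out. Depth limits the 96 h library most, above all in thin limb-like and then TAL-like nuclei, where 10 CPM is 0.683 and 1.85 UMIs. The injury-led cluster was the exception, with 10 CPM at 1.26 UMIs without injury and 3.44 UMIs at 96 h. Against the 1795 higher and 470 lower genes over all nuclei, TMM scaling gave 917 and 1067 and no filter on low counts 3340 and 1066. In PT-like nuclei 1825 and 418 became 873 and 1106 with TMM scaling and 3463 and 1163 with no filter. In TAL-like nuclei 2571 and 1201 became 1675 and 1828 with TMM scaling and 4098 and 3221 with no filter, and the lower count was 1849 with at least 400 genes and 2060 with thinned nuclei. The counts under the other alternatives were within 1.5 times. Of 172 named genes past 2-fold over all nuclei, TMM scaling took 10 under it, at least 400 genes 6, thinning 6, per-nucleus means 5, Malat1 left out 3 and a pseudocount of 5 CPM 1, with no change of sign. In PT-like nuclei, marker UMIs took 9 of 37 under 2-fold and turned Pde7b to −0.30 and Sgcz to −0.46 on the log2 scale. In TAL-like nuclei they took 7 of 32 under it and resolution 2.0 took 6. Log2 folds turned to −3.50 for Mpped2 with marker UMIs, to −2.43 at resolution 2.0 and −6.04 with marker UMIs for Slc12a3, and to −5.90 and −6.14 for Slc8a1. Except for Slc12a3 at resolution 2.0, with 50 and 2 UMIs, these rest on 0 UMIs at 96 h against 4 to 27, so their size depends on the pseudocount and is no bound. Zbtb16 turned to 0.75 with thinned nuclei and 0.14 with marker UMIs. The nuclei counted differ under these namings, in which Slc12a3 and Slc8a1 are themselves markers of other classes, and the cause was not otherwise tested.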

Other observations

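Tpx2, a spindle assembly factor like Spag5, had 33 UMIs (4.61 CPM) without injury and 38 UMIs (20.5 CPM) at 96 h, 4.44-fold (2.71 to 7.3). It was looked up after the values of Spag5 had been seen. In thin limb-like nuclei Diaph3, a formin of dividing cells, had 31 and 17 UMIs, 3.66-fold (1.9 to 6.82), Krt18, an epithelial keratin, 26 and 15 UMIs, 3.85-fold (1.89 to 7.54), and Clu 2 and 12 UMIs. In the cluster led by Vcam1, Havcr1 and Krt20, Cd74, the invariant chain of antigen presentation, had 8 and 5 UMIs, 0.23 (0.0592 to 0.797) of the level without injury, while Snx31 had 0 and 85 UMIs, at least 8.29-fold higher by the exact interval. Red blood cell markers had 117 UMIs over all nuclei without injury and 3 at 96 h.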
